A study of Mus musculus with 75 samples.

Results

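The clustered histone genes are the protein-coding genes that encode the linker histones H1 and the core histones H2A, H2B, H3 and H4 and that carry a symbol of the form Hist, a cluster number, h and a class. This rule took 67 of the 55536 genes in the deposited count table, without regard to their values. By class there were 6 H1, 18 H2A, 18 H2B, 12 H3 and 13 H4 genes. By position, 54 genes lay in the Hist1 cluster at chr13:21715763-23934851, 10 in Hist2 at chr3:96219865-96270132, 2 in Hist3 at chr11:58948920-58956830 and 1, Hist4h4, at chr6:136801553-136804415 (GRCm38). RNA was sequenced from livers of male C57Bl/6 mice, so labelled, without selection for poly(A). Their dams had drunk, until weaning, water with vehicle or with the organotin tributyltin (TBT), given at 0.5 mg/kg per day (3.07 µM). The 3-week livers gave 8 libraries after vehicle and 8 after TBT. Of the 5-month livers, 8 came from vehicle mice, and TBT mice gave 16 from a low-risk and 10 from a high-risk group. The 10-month material comprised 6 livers of vehicle mice and, all after TBT, 5 livers of the low-risk group, 6 uninvolved livers of the high-risk group and 7 tumors. A further 10-month vehicle library is labelled as a tumor and entered no group. Neither the basis of the risk groups nor the number of litters is given in the labels, so the p-values measure only the spread between these samples.

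Clustered histone genes are transcribed mainly in S phase, when newly copied DNA is packed into nucleosomes. Their mRNAs are the main class of animal mRNA that ends without a poly(A) tail. A conserved hairpin shortly after the stop codon is bound by the stem-loop binding protein, encoded by Slbp, and the U7 ribonucleoprotein directs the cut behind it. Some members also give longer, polyadenylated transcripts, which are known from cells that have stopped dividing. Some histone variants encoded outside the clusters, such as H3f3a and H1f0, are made independently of replication. Most hepatocytes of an adult liver do not divide, whereas the liver of a young mouse still grows.

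The hairpin is the sequence that sets these genes apart, and it was looked for in the annotated transcripts as a 16-base run with a 6-base stem and a 4-base loop within 150 bases of the stop codon. It was present in 46 of the 52 members with at least 30 annotated bases after the stop (88.5%) and in 5 of 20896 other protein-coding genes (0.0239%). The other 15 members have fewer than 30 annotated bases there, and Hist1h1b, Hist1h2bn, Hist1h2bl, Hist1h3h, Hist1h3i and Hist1h4k are among them. Below, the bases of the stem are in capitals and those of the loop in lower case.
Most common form, in 26 members, among them Hist1h1c, Hist1h1e and Hist1h2be: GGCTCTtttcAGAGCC
H4 form, in 7 members, among them Hist1h4d and Hist1h4h: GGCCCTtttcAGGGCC
Form in 6 members, among them Hist1h3c, Hist1h3e and Hist1h2bb: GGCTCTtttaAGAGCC
Form in Hist1h4i and Hist2h4: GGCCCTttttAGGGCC
Form in Hist1h4b and Hist1h4j: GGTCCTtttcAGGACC
Form in Hist1h3g alone: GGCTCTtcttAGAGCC
Hist1h4a and Hist2h2ac each had a form of their own. The most common form began between 25 and 59 bases after the stop codon, with a median of 32.0. The stems of the H4 genes differed from those of the H1, H2A, H2B and H3 genes, and the same stem-forming bases recurred in members that differed in how often they were called. Hist1h1e, which was called in none of the comparisons below, and Hist1h2bm, which was called in several, carry the same 16 bases. No hairpin was found in the annotated ends of Hist1h1a, Hist1h2bc, Hist1h2bq, Hist1h2br, Hist2h2be and Hist2h3b, the 6 members left over.

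Promoters of 62 members were found in RefSeq (GRCm38.p6), each as the 250 bases before and 50 bases after the annotated start. The octamer ATTTGCAT, read on both strands as were all motifs, was in 14 of them (22.6%), against 1.74% of the 32851 promoters in the table. All 14 belonged to H2A or H2B genes. CCAAT was in 53 (85.5%, against 37.4%), that is in all promoters but those of H4 genes, of which 3 of 12 held it. TATAAA was in 35 (56.5%, against 13.6%), and AAACACA, found in 5 of 6 H1 promoters, was in 9 (14.5%, against 7.18%). A match is a description of these letters and not a site. The promoters of 3 members follow, with the matches in capitals: Hist1h1b and Hist1h2bn, which were higher in both high-risk groups and in tumors, and Hist1h2bb, an H2B gene with the octamer.
Hist1h1b (RefSeq H1f5), chr13:21780576-21780875, minus strand: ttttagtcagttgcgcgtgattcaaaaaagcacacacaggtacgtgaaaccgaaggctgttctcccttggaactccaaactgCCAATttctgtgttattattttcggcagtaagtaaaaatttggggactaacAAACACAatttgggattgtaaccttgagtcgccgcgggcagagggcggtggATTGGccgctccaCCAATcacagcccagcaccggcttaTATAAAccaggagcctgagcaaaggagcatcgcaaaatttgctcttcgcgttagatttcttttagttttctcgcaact
Hist1h2bn (RefSeq H2bc15), chr13:21753826-21754125, plus strand: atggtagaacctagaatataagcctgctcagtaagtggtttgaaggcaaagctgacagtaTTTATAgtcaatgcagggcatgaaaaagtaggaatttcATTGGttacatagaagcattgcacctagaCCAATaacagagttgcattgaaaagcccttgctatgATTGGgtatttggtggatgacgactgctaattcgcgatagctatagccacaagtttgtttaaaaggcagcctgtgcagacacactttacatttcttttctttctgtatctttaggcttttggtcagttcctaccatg
Hist1h2bb (RefSeq H2bc3), chr13:23746484-23746783, plus strand: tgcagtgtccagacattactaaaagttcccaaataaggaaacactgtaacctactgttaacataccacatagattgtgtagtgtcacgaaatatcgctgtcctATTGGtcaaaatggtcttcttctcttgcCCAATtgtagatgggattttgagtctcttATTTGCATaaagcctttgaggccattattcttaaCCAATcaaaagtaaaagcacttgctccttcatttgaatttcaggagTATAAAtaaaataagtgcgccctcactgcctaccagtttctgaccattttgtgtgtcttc
Each of the 3 held 3 CCAAT matches and 1 TATAAA match. Hist1h1b had in addition 1 AAACACA match, and Hist1h2bb 1 octamer, whereas Hist1h2bn held no octamer.

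Total counts ran from 2831666 to 45448610 per library, with between 15118 and 39669 genes detected and 1.86 to 14.5% of counts from mitochondrial genes. Hepatocyte identity was plain in every library, with Alb, the gene of serum albumin, at 41238 CPM or more (CPM is a gene's count scaled to a library total common to all samples). The library labelled 3-week TBT 4 went against the label male: Xist was at 348 CPM and 4 Y-linked genes summed to 7.08 CPM, against at most 84.6 and at least 93.9 CPM in the other samples. Another 6 libraries stood apart in depth, genes detected or mitochondrial share: 5-month vehicle 9, 5-month low-risk 16, 5-month high-risk 10 and 15, the vehicle library labelled as a tumor, and 1 of a pair from 3-week vehicle mouse 3. That pair was summed, and so were uninvolved libraries 3 and 6, whose counts differed by only 1.26 times sampling noise. This left 7 3-week vehicle and 5 uninvolved samples. Of the 5-month libraries, 1 from a vehicle mouse, 10 from the low-risk and 7 from the high-risk group were in sequencing batch 2, and all others were in batch 1.

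Members are closely alike in sequence, which limits how far reads can be assigned to one of them. A median of 49.5% of a member's 50-base stretches recurred in another annotated gene, and 32 members shared over 50% of theirs. Among members named below, the share was 97.3% for Hist1h2bq, 93.9% for Hist1h3h, 86.4% for Hist1h2bn, 82.8% for Hist1h2bl and 71.5% for Hist1h4k. It was 0% for Hist1h1b and 1.0% for Hist2h4. How the authors counted reads with several matches, and reads from the opposite strand, is not given in the sources used here, so levels of near-identical members are uncertain, as are those of the 21 members that overlap a gene on the other strand. Hist2h2aa1, Hist2h2aa2, Hist2h3b, Hist2h3c1 and Hist2h2bb were listed at 0 in all 75 libraries. Hist1h1t, the testis-specific linker histone, reached at most 0.423 CPM in any group.

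A few members accounted for much of the signal. Per kilobase of annotated exon and averaged over all samples, Hist1h4h led with 71.6 CPM per kb, followed by Hist1h1c with 71.3, Hist1h2bc with 67.7, Hist1h1e with 37.1 and Hist1h4d with 36.6 CPM per kb. The H3 genes were lower, with Hist1h3e at 12.2 CPM per kb as the most abundant, and the H2A genes lower still. The order depended on age. Hist1h4f was among the most abundant members in 3-week vehicles at 71.5 CPM per kb and fell to 15.1 at 5 months and 9.95 at 10 months, whereas Hist1h2bc stood at 52.8, 67.6 and 77.9 CPM per kb. The linker genes Hist1h1c and Hist1h1e and the H2B gene Hist1h2bc made up a median of 35.6% of all clustered histone CPM in 3-week vehicles, 60.0% in 5-month vehicles and 61.4% in 10-month vehicles. Their share was 48.4% in 5-month high-risk livers, 51.5% in uninvolved livers and 52.8% in tumors.

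Summed over the 67 genes, clustered histone RNA had a median of 813 CPM (567 to 977) in 3-week vehicles, 434 CPM (161 to 565) in 5-month vehicles and 382 CPM (364 to 426) in 10-month vehicles. High-risk livers of 5 months had 706 CPM (316 to 918), above the 411 CPM (291 to 598) of low-risk livers at the median but overlapping them. Uninvolved livers had 462 CPM (356 to 613) and tumors 599 CPM (402 to 815), against 416 CPM (387 to 444) in low-risk livers of 10 months. The H3 genes alone separated the groups further, from 78.5 CPM (54.3 to 105) in 3-week vehicles to 12.4 CPM (11.1 to 15.3) in 10-month vehicles. In bulk liver, fewer dividing cells and less histone RNA per cell cannot be told apart.

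**Figure D1:**
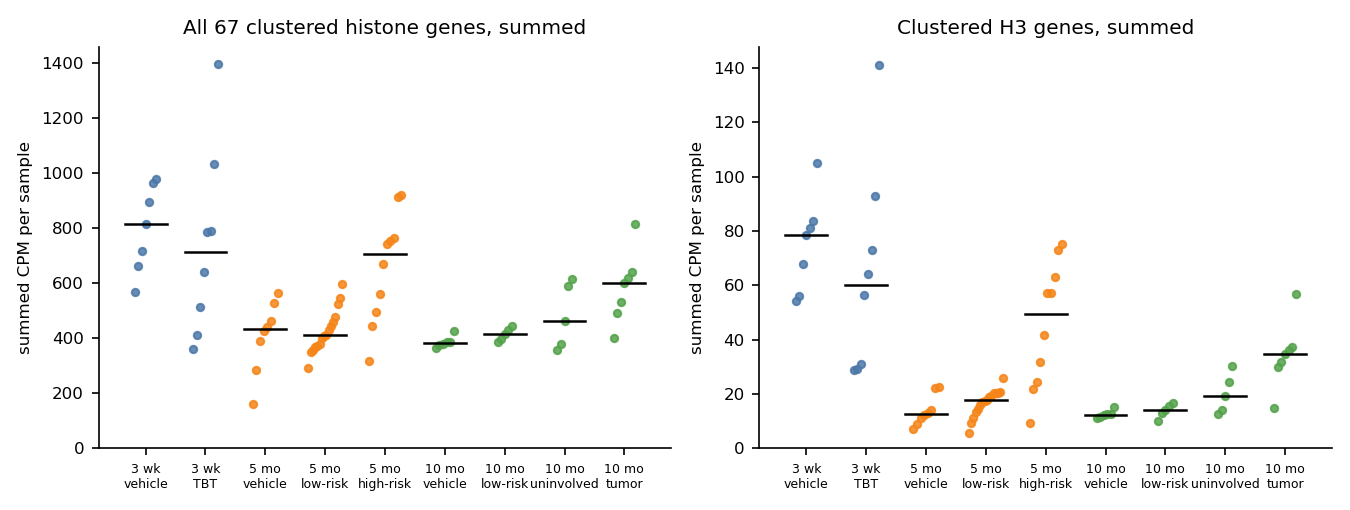
Summed CPM of all 67 clustered histone genes (left) and of the H3 genes alone (right), 1 point per sample in order of value within each of 9 groups, with the median as a line. The medians of the 3-week groups are highest, those of the 5-month and 10-month vehicle and low-risk groups lowest, and high-risk samples of 5 months spread from 316 to 918 CPM.

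Between 3 weeks and 5 months, most clustered histone mRNAs of vehicle livers fell steeply while a few abundant ones hardly moved. Hist1h3g, an H3 gene at chr13:23535422-23535951, ran from 3.15 to 7.03 CPM with a median of 4.33 at 3 weeks and from 0.0293 to 0.514 CPM with a median of 0.142 at 5 months (7 samples each, batch 1). Hist1h1b, a linker histone gene at chr13:21779883-21780625, went from 11.6 to 29.4 CPM (median 21.8) down to 0 to 5.44 CPM (median 0.942). Neither gene's ranges overlapped. Their log2 fold changes were -4.32 ± 0.50 (SE; adjusted p = 1.5e-06) and -3.32 ± 0.40 (adjusted p = 3.37e-06) by edgeR. Other large falls were those of the H2B genes Hist1h2bq at -4.21 ± 0.51 (adjusted p = 2.37e-06) and Hist1h2bl at -3.86 ± 0.42 (adjusted p = 8.2e-07). Hist1h2bc rose, by 0.55 ± 0.13 on the log2 scale (adjusted p = 0.00447), from 50.8 to 73.2 CPM at 3 weeks (median 57.5) to 43.8 to 102 CPM at 5 months (median 86.0), with overlapping ranges.

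Of the 51 members that passed the filter on low counts, 45 fell and 1 rose, where 24.2% of the 14962 genes tested were called in either direction, 11.9% of the genes tested being higher and 12.3% lower. A member could pass that filter through the group in which it was high, so such counts describe the tested members and not the whole family. The falls took 9 of 10 tested H2A, 12 of 13 H2B, all 10 H3, 11 of 13 H4 and 3 of 5 H1 genes, and in 39 of the 46 called members (84.8%) the samples of the 2 ages did not overlap, as in 27.6% of all called genes. The tested members' median was -2.37, against 0.02 over all genes. Among those that were not called were the linker genes Hist1h1c at -0.09 and Hist1h1e at -0.36, the H4 genes Hist1h4h at -0.41 and Hist1h4i at -0.55, and Hist3h2a at -0.15. The 3 most abundant H2A members on the CPM scale all fell, and Hist1h2ab, for one, fell by 3.33 on the log2 scale.

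Between 5 and 10 months the vehicle livers changed less. Of 51 tested members 6 were lower and 0 higher, where 14.1% of genes were called, 6.68% higher and 7.41% lower. Hist1h2bn fell by 1.44 ± 0.44 (adjusted p = 0.0347), Hist1h1b by 1.40 ± 0.46 (adjusted p = 0.0445) and the H4 gene Hist1h4k by 1.27 ± 0.39 (adjusted p = 0.0353), with overlapping ranges. Hist1h4m, Hist1h4n and Hist2h4 were the other 3. This count was 1 with no filter on low counts, 9 with DESeq2 and 3 without the TMM scaling. Calls over all genes moved from 2107 to 1128, 4197 and 2017 in these fits, in the same order.

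At 3 weeks, no clustered histone gene was called between livers of TBT-exposed and vehicle mice. Summed levels ran from 359 to 1395 CPM (median 713) in the 8 TBT samples and from 567 to 977 CPM in vehicles, so both the lowest and the highest 3-week sample were TBT livers. The highest was TBT 4, the library that goes against its label for sex, and the other 7 reached at most 1030.2 CPM (median 641). Hist1h2bn ran from 3.99 to 31.2 CPM (median 11.2) in TBT livers and from 9.77 to 20.6 CPM (median 15.5) in vehicles, with the vehicle range inside that of the TBT livers. By edgeR 0 of 51 tested members and 0% of 14050 genes were called, and 0 members had an unadjusted p under 0.05. DESeq2 also called 0. The tested members' log2 fold changes lay between -0.73 and 0.11, with a median of -0.20. Without TBT 4 edgeR called 0 of 50 members, 6 had an unadjusted p under 0.05, and the median was -0.42. In simulated data of this design the test found 69 of 89 genes changed by 1 on the log2 scale. Each simulated gene was drawn independently, at the spread typical of its level, so this gives no recovery rate for the histone members.

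At 5 months, many scarce members were at higher levels in livers of the high-risk group than in those of the low-risk group, which had the same TBT dose. Hist1h1b ran from 2.62 to 31.2 CPM (median 11.9) in the 10 high-risk and from 0.364 to 6.82 CPM (median 1.29) in the 16 low-risk samples. Of the 10 high-risk samples 6 lay above every low-risk sample. Its log2 fold change was 2.36 ± 0.46 (adjusted p = 0.000115). Hist1h2bn, an H2B gene at chr13:21754123-21754503, ran from 0.874 to 19.6 CPM (median 8.14) against 0 to 3.93 CPM (median 1.05), a log2 fold change of 2.42 ± 0.49 (adjusted p = 0.000176). For Hist1h4k 9 of 10 high-risk samples exceeded all low-risk ones, at 3.65 to 16.4 CPM (median 11.4) against 0.221 to 3.77 CPM (median 2.06), and the log2 fold change was 1.99 ± 0.38 (adjusted p = 7.69e-05). The largest fold changes belonged to scarce genes, Hist1h2bl at 2.87 ± 0.65 (adjusted p = 0.000617) and Hist1h3g at 2.77 ± 0.71 (adjusted p = 0.00205), whose low-risk medians were 0.0633 and 0 CPM.

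Of 46 tested members 23 were higher and 1 lower, where 38.9% of the 14773 genes tested were called and 20.3% were higher. The higher calls took 4 of 5 tested H1 genes, 2 of 6 H2A, 7 of 12 H2B, 6 of 10 H3 and 4 of 13 H4 genes. The ranges overlapped for each of the 24 called members, whereas 6.70% of all called genes had ranges that did not overlap. Of the abundant linker genes, Hist1h1c rose by 0.63 ± 0.21 (adjusted p = 0.018), with 98.5 to 255 CPM (median 143) against 50.9 to 142 CPM (median 69.4), and Hist1h1e stood at -0.15. The abundant H4 genes Hist1h4d, Hist1h4h and Hist1h4c were not called, at -0.23, -0.38 and -0.38. Hist1h2bc was called lower at -0.46 ± 0.13 (adjusted p = 0.00529), although its plain CPM differed little, at 52.2 to 101 (median 78.1) against 62.4 to 126 (median 80.5). TMM scaling sets the median of all genes near 0, and scaling by total counts alone raised that median by 0.30 in this comparison. Without TMM scaling 27 members were higher and 0 lower, and Hist1h2bc was at -0.15 (adjusted p = 0.356).

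**Figure D2:**
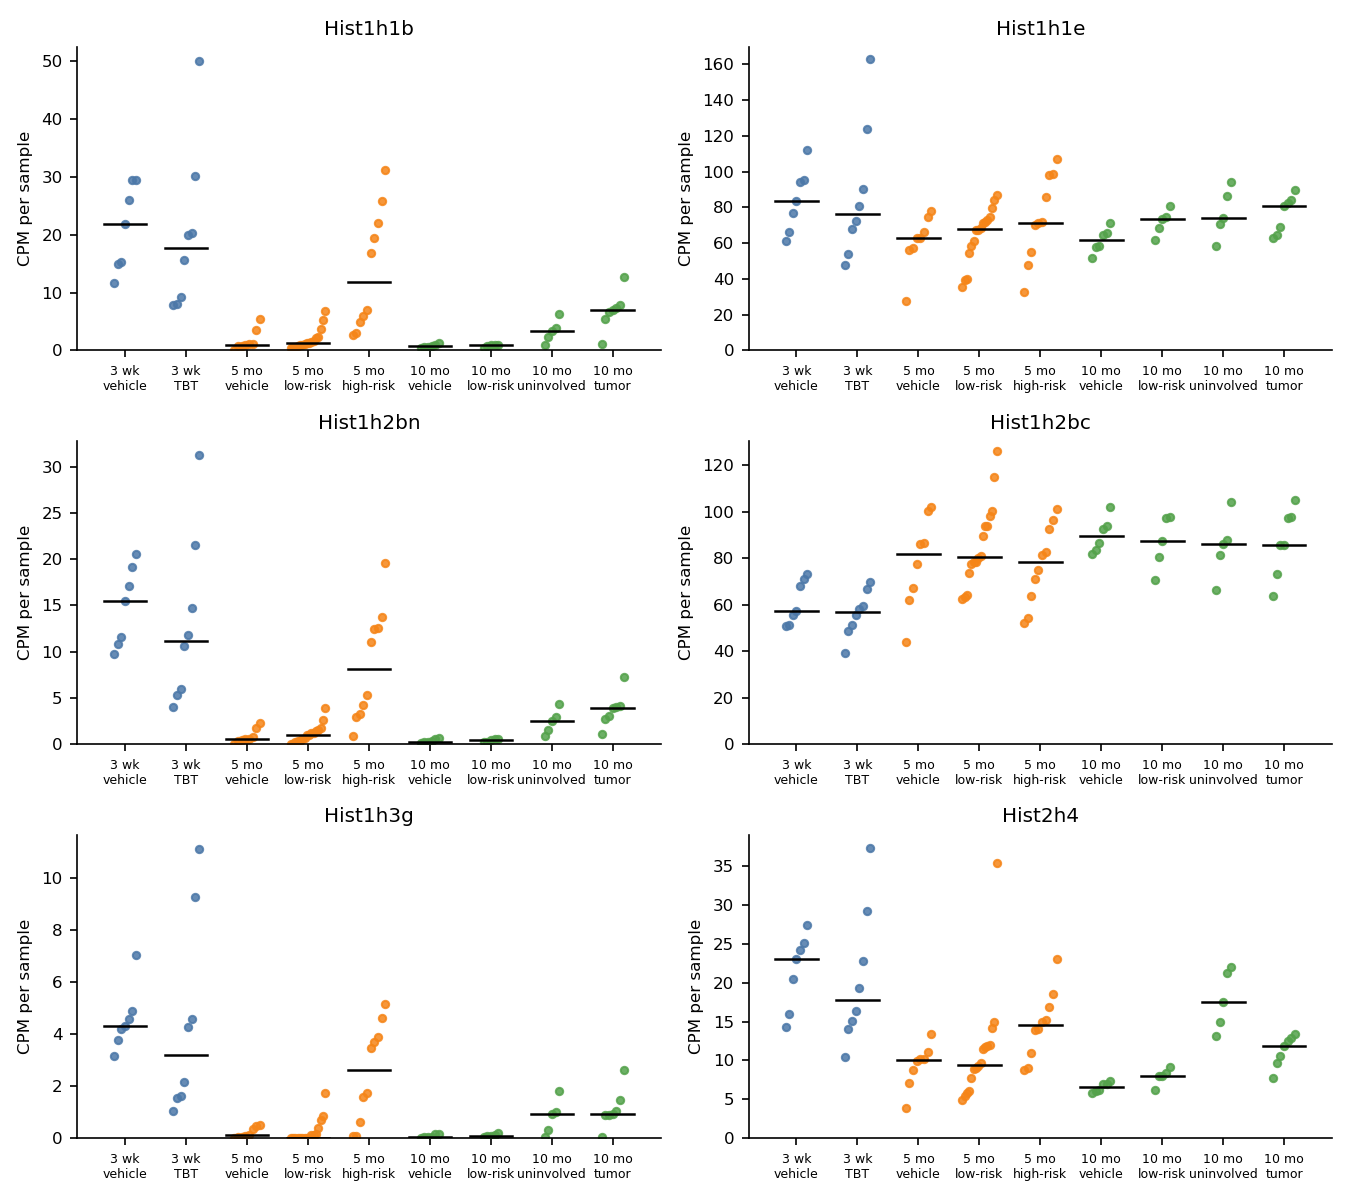
CPM per sample of 6 members, 1 point per sample in order of value within each of 9 groups, with the median as a line and an axis from 0 in each panel. The left column (Hist1h1b, Hist1h2bn, Hist1h3g) holds members high at 3 weeks, in high-risk livers and in tumors, and the right column (Hist1h1e, Hist1h2bc, Hist2h4) more abundant members with smaller relative differences between groups.

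The 5-month difference was called within sequencing batch 2 and not within batch 1. Hist1h1b had a median of 19.5 CPM (3.01 to 31.2) in the 7 high-risk samples of batch 2 and 4.96 CPM (2.62 to 6.93) in the 3 of batch 1, whereas low-risk medians were 1.39 and 0.827 CPM. Within batch 2 alone 21 of 53 members were higher and 1 lower, at a median of 1.12, where 5403 of 19245 genes were called. Within batch 1 alone, with 3 high-risk and 6 low-risk samples, 0 of 45 members were called, at a median of 0.53. There 773 of 16465 genes were called. The reason for the difference between batches was not tested. Against 5-month vehicles, 5 of 46 tested members were higher and 0 lower, where 15.8% of genes were called and 8.47% were higher: Hist1h2bn at 2.31 ± 0.68 (adjusted p = 0.0194), Hist1h1b at 2.21 ± 0.64 (adjusted p = 0.018), Hist1h3c, Hist1h1a and Hist1h4k. Batch 2 held only 1 vehicle, so this contrast leans on the batch term. The count was 22 without that term, 0 in a fit of the 2 groups alone and 0 in batch 1 alone. It was 12 with DESeq2 and 12 without the libraries that stood apart. Calls over all genes were 2671, 1338, 0, 2927 and 2903 in these fits, in the same order, against 2341 in the main fit. Between low-risk livers and vehicles edgeR called 0 of 46 members and 0% of genes, 0 members at an unadjusted p under 0.05 and 0 by DESeq2.

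At 10 months low-risk livers again gave 0 calls against vehicles by edgeR, among 42 tested members and 16338 genes (0%), with 0 members at an unadjusted p under 0.05 and 0 by DESeq2. Uninvolved livers of high-risk mice held more RNA of some members than low-risk livers, but of a smaller share of members than of all genes. Of the 42 tested members 23.8% were higher, against 27.7% of all genes. Hist1h2bn was at 2.51, 4.32, 1.5, 0.863 and 2.93 CPM in uninvolved livers 1, 3 and 6 together, 5, 7 and 12, and at 0.258, 0.530, 0.214, 0.478 and 0.60 CPM in the low-risk livers. The groups did not overlap, and uninvolved liver 7 was the lowest of its group. The log2 fold change was 2.33 ± 0.45 (adjusted p = 0.000454). Hist1h1b followed at 1.91 ± 0.40 (adjusted p = 0.000802), with 3.93, 6.34, 2.29, 0.921 and 3.29 CPM against 0.388, 0.908, 0.678, 0.896 and 0.967 CPM, where uninvolved liver 7 fell inside the low-risk range. The abundant H4 gene Hist2h4, at chr3:96261682-96263311, was at 17.5, 22, 14.9, 13.1 and 21.2 CPM against 6.24 to 9.19 CPM (median 7.97) in the low-risk livers. Its groups did not overlap, at a log2 fold change of 0.93 ± 0.16 (adjusted p = 0.000153).

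In all 10 of 42 tested members were higher and 0 lower in uninvolved than in low-risk livers, where 52.4% of the genes tested were called, 27.7% of the genes tested being higher and 24.7% lower. In 5 of these 10 the groups did not overlap, as in 49.5% of all called genes. Hist1h3i, Hist1h2ak, Hist1h3d, Hist1h4k, Hist1h1a, Hist2h2be and Hist1h4d were the others. The count was 6 without low-risk liver 9 or in a fit of the 2 groups alone, 18 without uninvolved liver 7 and 16 without TMM scaling, all of them higher. Calls over all genes were 7727, 7586, 8050 and 8667 in these fits, in the same order, against 8561 in the main fit. Without uninvolved liver 12 there were 6 higher and 3 lower, and without livers 3 and 6 there were 6 higher and 1 lower, with the median of the tested members at 0.14 in place of 0.37. Calls over all genes were 9255 without liver 12 and 8910 without livers 3 and 6. Against 10-month vehicles 16 members were higher and 1, Hist1h2bc, lower, where 57.7% of the genes tested were called, 31.2% of the genes tested being higher and 26.5% lower. There were 12 higher and 4 lower without uninvolved liver 12, and 11 higher and 2 lower without livers 3 and 6. Calls over all genes were then 10014 and 9636, against 9427 in the main fit. Hist1h2bn rose by 2.47 ± 0.43 (adjusted p = 0.000128) and Hist2h4 by 1.13 ± 0.15 (adjusted p = 1.04e-05). Hist1h2bc was at -0.38 ± 0.13 (adjusted p = 0.0156), and at -0.08 (adjusted p = 0.525) without TMM scaling. Counting the tumor-labelled vehicle library as a vehicle left 8 higher, where 6019 of 16567 genes were called. Uninvolved libraries also stood apart in Rn7sk, an abundant small nuclear RNA without poly(A), at 9040.3 to 17755 CPM against 4616 to 6946 CPM in the low-risk, vehicle and tumor samples of that age. Their mitochondrial share was 4.2 to 5.85% against 2.64 to 3.83% in those groups, they had 24676 to 28715 genes detected against 21078 to 23868, and they were deeper than every library of those groups. The part of these differences in the results was not tested. The change of the risk difference between 5 and 10 months was called for 0 of 46 members by edgeR, where 0.448% of 16084 genes were called (0.180% higher and 0.267% lower), with 4 members at an unadjusted p under 0.05 and 0 by DESeq2.

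Tumors held higher levels of most members than 10-month vehicle livers. Hist1h2bn was at 4.19, 2.71, 3.01, 3.91, 1.08, 3.98 and 7.31 CPM in tumors 1, 3, 5, 6, 7, 11 and 12, and at 0.115 to 0.645 CPM (median 0.287) in the 6 vehicles. The groups did not overlap, and the log2 fold change was 3.06 ± 0.41 (adjusted p = 4.86e-05). Hist1h1b was at 7.92, 6.98, 6.70, 5.36, 1.16, 7.38 and 12.7 CPM in the tumors and at 0.477 to 1.18 CPM (median 0.684) in vehicles, a log2 fold change of 2.90 ± 0.39 (adjusted p = 5.83e-05). Tumor 7 alone lay inside the vehicle range for Hist1h1b, and tumor 12 was the highest for both genes. Hist1h3g had the largest change, 3.39 ± 0.67 (adjusted p = 0.000881), from 0 to 0.182 CPM (median 0.0514) in vehicles to 0.0431 to 2.61 CPM (median 0.933).

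Of 47 tested members 36 were higher and 2 lower, where 45.9% of the 15293 genes tested were called and 24.8% were higher. These were 4 of 5 tested H1, 5 of 6 H2A, 11 of 13 H2B, 9 of 10 H3 and 7 of 13 H4 genes, and in 12 of the 38 called members (31.6%) the groups did not overlap, as in 41.3% of all called genes. Hist1h1c rose by 0.47 ± 0.13 (adjusted p = 0.00937), whereas Hist1h1e was at 0.01. The abundant H4 genes Hist1h4d and Hist1h4c were not called, at 0.04 and -0.15. The calls of lower levels were Hist1h2bc at -0.35 ± 0.08 (adjusted p = 0.0034) and Hist1h4h at -0.28 ± 0.09 (adjusted p = 0.0171). Both were lost without TMM scaling, at -0.05 (adjusted p = 0.707) and 0.02 (adjusted p = 0.887), where 42 members were higher and 0 lower.

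Set against the uninvolved livers, tumors differed in a partly different set of genes. Hist1h3h, an H3 gene at chr13:21717659-21718069, was at 2.37, 1.64, 2.01, 1.42, 0.302, 2.47 and 3.89 CPM in the tumors and at 0.269, 0.407, 0.0997, 0.0863 and 0.329 CPM in the uninvolved livers. Of the 7 tumors 6 lay above every uninvolved liver, and the log2 fold change was 2.97 ± 0.53 (adjusted p = 0.00408). Hist1h4j was at 2.24 to 6.69 CPM (median 4.40) in tumors and at 1.68, 2.03, 0.723, 0.834 and 1.89 CPM in uninvolved livers, with no overlap and a log2 fold change of 1.57 ± 0.30 (adjusted p = 0.00583). Hist2h4 was lower in tumors, at 7.80 to 13.4 CPM (median 11.8) against 13.1 to 22 CPM, so that the ranges met,, by -0.69 ± 0.15 (adjusted p = 0.0107). Hist1h2bn and Hist1h1b were not called here, at 0.57 and 0.99. In total 12 of 47 tested members were higher and 1 lower, where 18.1% of the 16362 genes tested were called and 7.55% were higher. The count moved with single samples, to 5 without uninvolved liver 1 or 5, 6 without uninvolved liver 7, 7 without tumor 12 and 21 without tumor 7. Calls over all genes moved too, from 2961 to 1580, 1590, 1611, 2236 and 3489 in these fits, in the same order. Tumors and uninvolved livers with the same mouse number were also compared with the mouse as a block. Over the 4 pairs without mice 3 and 6, 24 members were higher and 1 lower, where 3037 of 16728 genes were called. Over all 6 pairs 10 were higher and 2 lower, where 1920 of 16404 genes were called.

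**Figure D3:**
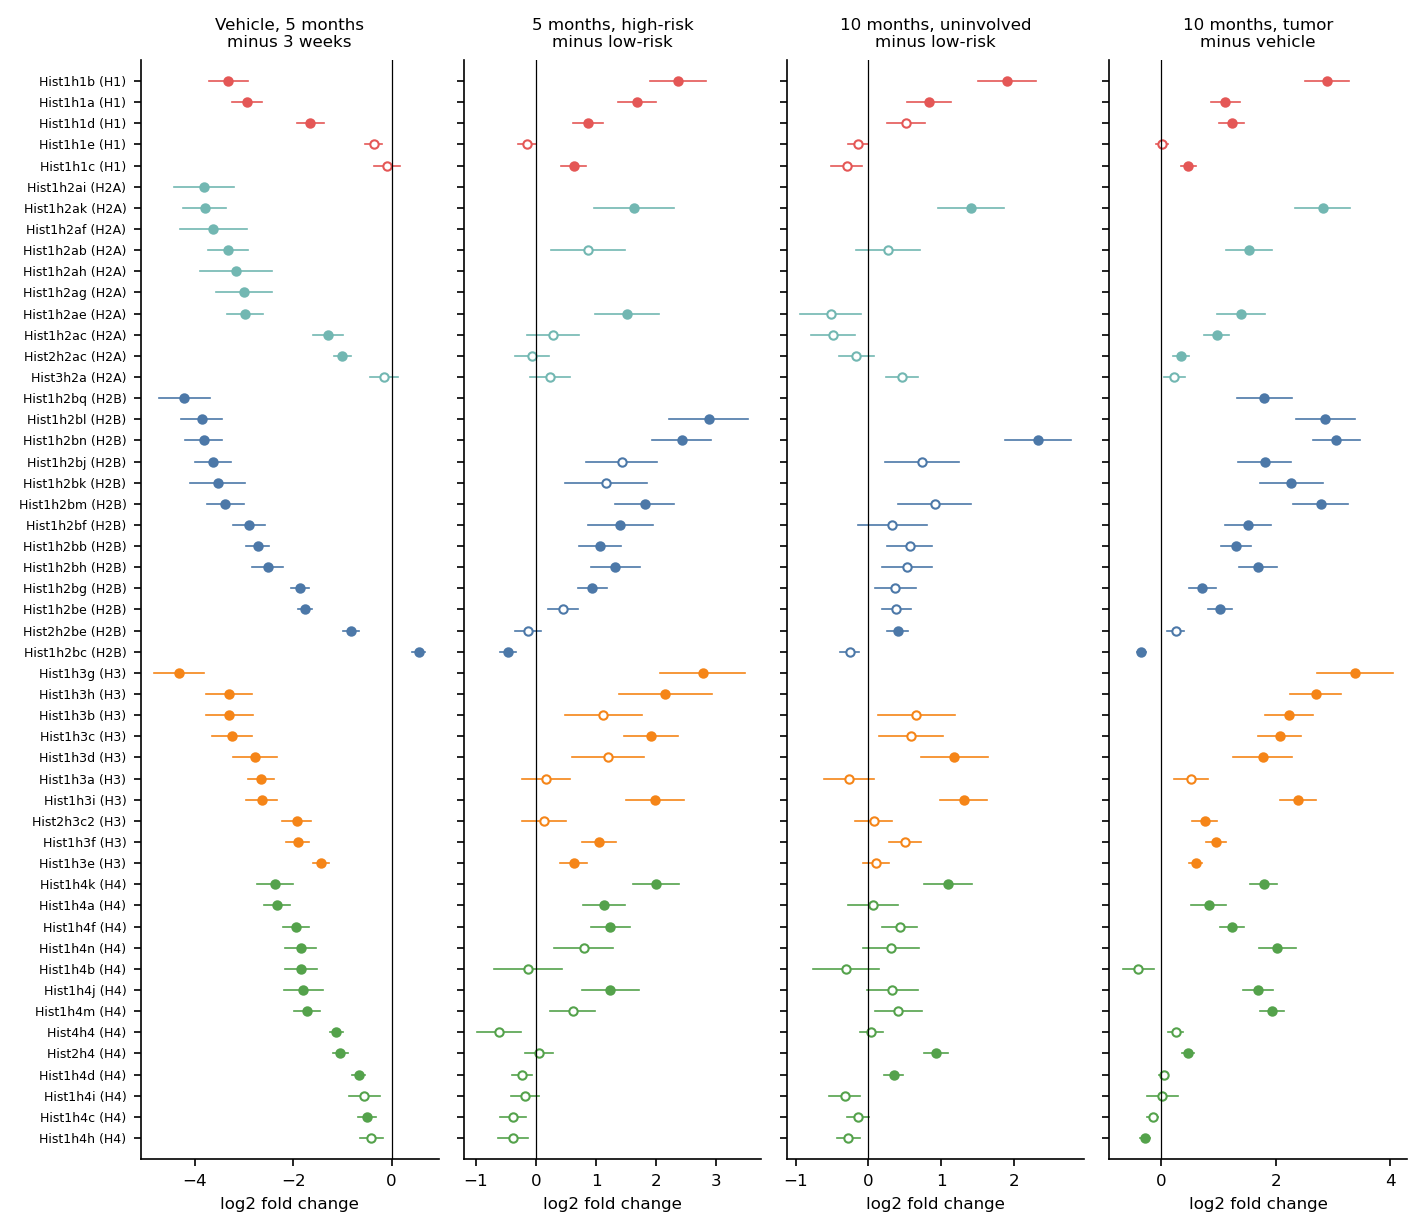
Log2 fold change with its standard error for each tested member in 4 comparisons, grouped by histone class, with filled points for adjusted p under 0.05 by edgeR and no point where a member did not pass the filter on low counts; the horizontal scales differ. Most members lie left of 0 in the first panel, where 45 fell with age, and right of 0 in the last, where 36 were higher in tumors.

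Calls were also compared between contrasts that share no samples. All 23 members that were higher in the high-risk livers of 5 months were among the 36 higher in tumors than in 10-month vehicles, of which they made up 63.9%. Of the 46 members tested in both, 76.1% were higher in tumors, and of all genes higher in the 5-month high-risk livers 81.8% were higher in tumors. Of the 23, 22 (95.7%) were among the 45 that fell with age in vehicles, and they made up 48.9% of those 45. Of the 46 members tested in both 87.0% fell with age, whereas 24.6% of all genes higher in the high-risk livers did. There were 6 genes shared between the 23 of 5 months (26.1%) and the 10 higher in uninvolved livers (60.0%): Hist1h1a, Hist1h1b, Hist1h2ak, Hist1h2bn, Hist1h3i and Hist1h4k. Of the 42 members tested in both, 47.6% were higher at 5 months, and over all genes the shared calls were 72.1% of the 5-month and 47.9% of the 10-month list.

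Changes were also described by the members' counts and by their annotated ends, a grouping by length that was chosen after the values were seen. For the 10 members with a mean of at least 10 CPM over all samples, the median log2 fold change was -0.59 with age in vehicles, -0.05 in high-risk against low-risk livers of 5 months and 0.25 in tumors against vehicles. The medians of the members under 10 CPM were -2.77, 1.15 and 1.69. CPM grow with gene length, and against the level per kilobase the log2 fold changes had Spearman's rho of 0.35 over 51 members, -0.07 over 46 and -0.19 over 47 in these 3 comparisons. Members share libraries, and scarce members could pass the filter through their high group. Members with over 200 annotated bases after the stop codon had medians of -1.20, 0.24 and 0.54 in the same 3 comparisons, and those with up to 200 bases -3.00, 1.40 and 1.81. Members of both groups were called. With over 200 bases 15 of 20 fell with age, 6 of 19 were higher at 5 months and 12 of 20 were higher in tumors. In each comparison 1 of them was called the other way. With up to 200 bases these counts were 30 of 31, 17 of 27 and 24 of 27. The shorter group includes members without the hairpin and with fewer than 30 annotated bases, 10, 7 and 7 of those tested. Their medians were -3.47, 2.15 and 2.82, so this grouping also separates members by how far their ends are annotated. Hist1h1e and Hist1h1c carry the hairpin and a further 1153 and 840 annotated bases behind it, and Hist1h2bc has a second exon. Hist1h2bq, which also has over 200 annotated bases, went against this pattern with one of the largest falls, but 97.3% of its 50-base stretches are shared. Hist1h4h, with 93 annotated bases, also went against it. It was not called with age or at 5 months and was called lower in tumors only with TMM scaling. Members with over 50% of their 50-base stretches shared had medians of -3.30, 1.40 and 1.99, and the others -1.76, 0.63 and 0.83. The groupings by end and by sharing were not separated.

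**Figure D4:**
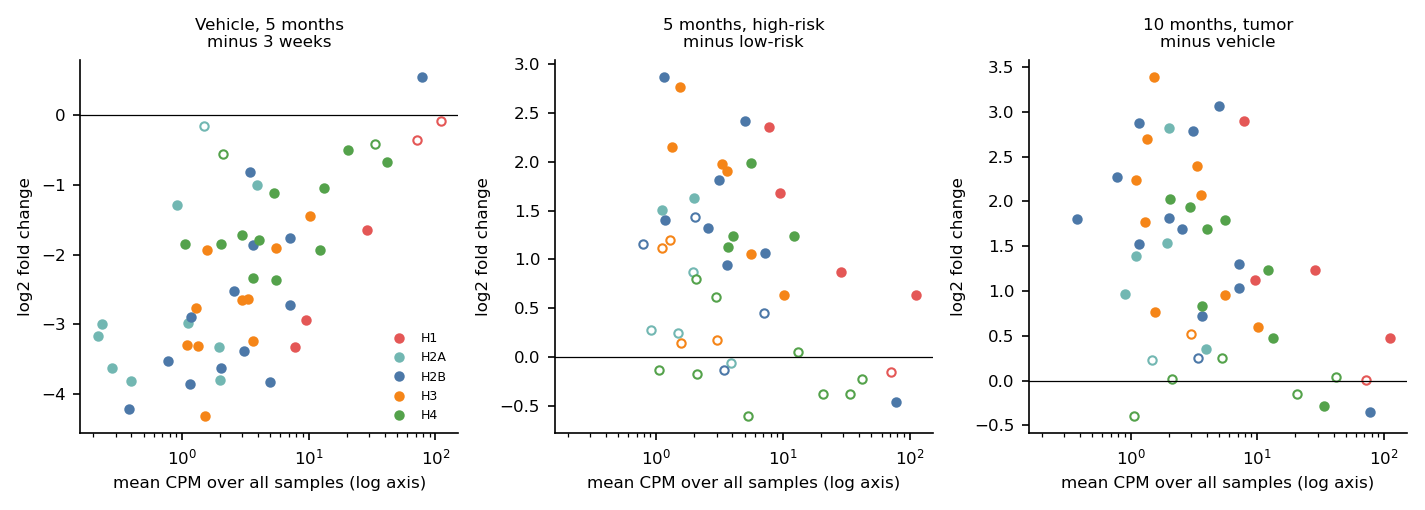
Log2 fold change of each tested member against its mean CPM over all samples (log axis) in 3 comparisons, colored by histone class and filled where adjusted p was under 0.05. The median of the members at 10 CPM and above is closer to 0 than that of the scarcer ones in each panel (-0.59, -0.05 and 0.25), while single members overlap between both sides, reaching -1.94 with age and 1.24 and 1.23 in the other 2 panels.

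Genes that act with the clustered histones were read from lists. In the list of histone mRNA transcription and processing, 1 of 18 tested genes was higher and 1 lower in high-risk than low-risk livers of 5 months: Zfp473, whose product binds the U7 particle, at 1.83 ± 0.63 (adjusted p = 0.0194), and Cpsf2, a subunit of the cleavage complex, at -0.23 ± 0.08 (adjusted p = 0.0163), a direction that turned without TMM scaling (0.09). Slbp itself was at 0.06 ± 0.12 (adjusted p = 0.744), and at 0.36 (adjusted p = 0.0183) without TMM scaling, as it was called higher in tumors than in vehicles only without it (0.16 against 0.46). It fell with age in vehicles, by 0.71 ± 0.11 (adjusted p = 6.89e-05). The called share, 11.1%, was below the 38.9% of all genes. In uninvolved against low-risk livers 1 of 17 genes of the list was higher and 7 lower (47.1%, against 52.4% of all genes), among them Lsm11, a U7 particle subunit, at -0.97 ± 0.11 (adjusted p = 3.73e-06).

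Histones made outside the clusters and histone chaperones were compared with all genes likewise. Of 11 listed histone genes outside the clusters, 4 were higher and 2 lower in the 5-month risk comparison (54.5%, against 38.9% of all genes). The linker variant H1fx was at 3.64 ± 0.67 (adjusted p = 4.84e-05) and Cenpa, the centromeric H3, at 1.19 ± 0.20 (adjusted p = 2.14e-05). In uninvolved livers H3f3a was at -0.46 ± 0.09 (adjusted p = 0.000457) and H1f0 at -0.44 ± 0.10 (adjusted p = 0.00188) against low-risk livers. Of 18 chaperone genes 5 were higher and 2 lower at 5 months (38.9%, the share of all genes), among them Chaf1b, a subunit of the chromatin assembly factor, at 1.64 ± 0.32 (adjusted p = 9.55e-05) and Rbbp4, a histone-binding protein, at -0.68 ± 0.09 (adjusted p = 4.71e-07).

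Lists of DNA replication and mitosis genes were read in the same way. In 5-month high-risk against low-risk livers 17 of 27 tested replication genes were higher and 2 lower (70.4%, against 38.9% of all genes). Mcm6, a subunit of the replicative helicase, was at 1.70 ± 0.23 (adjusted p = 6.9e-07). All 16 mitosis genes were higher there at a median of 3.04, with Mki67 at 3.22 ± 0.39 (adjusted p = 2.61e-07). In uninvolved against low-risk livers 6 of 27 replication genes were higher and 4 lower (37.0%, against 52.4% of all genes). Of 16 mitosis genes 15 were higher (93.8%), at a median of 2.13. With age in vehicles 23 of 28 replication genes fell and 1 rose (85.7%, against 24.2% of all genes), and all 16 mitosis genes fell. In tumors against vehicles 20 of 28 replication genes were higher and 1 lower (75.0%, against 45.9% of all genes). Again all 16 mitosis genes were higher, at a median of 3.27.

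Mki67, the proliferation marker, was compared with Hist1h1b and Hist1h2bc across the samples of each group and batch with at least 6 samples, which gave 16 relations chosen after the values were seen. In the 8 TBT livers of 3 weeks Hist1h1b followed Mki67 with Pearson's r = 0.99 (exact permutation p = 0.000347, adjusted 0.00556) and Spearman's rho = 0.93 (exact permutation p = 0.00223, adjusted 0.0357), and r was 0.98 without the 2 samples farthest from the Mki67 median, one of which was TBT 4, the highest in both genes. No other of the 16 relations passed adjustment. Among the 7 high-risk samples of batch 2, r was 0.85 and rho 0.54 (exact permutation p = 0.0524 and 0.236), and r turned to -0.30 without the 2 farthest samples, so this relation rests on those. Among the 7 tumors r was 0.62 and rho 0.75 (exact permutation p = 0.114 and 0.0663). Without the 2 farthest samples, r for Hist1h1b also went from 0.89 to 0.20 in the low-risk samples of batch 1. In the 5-month vehicles of batch 1 it went from 0.53 to -0.85. For Hist1h2bc r lay between -0.38 and 0.47, and between -0.86 and 0.59 without the 2 farthest samples. Such trimmed values rest on few samples.

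**Figure D5:**
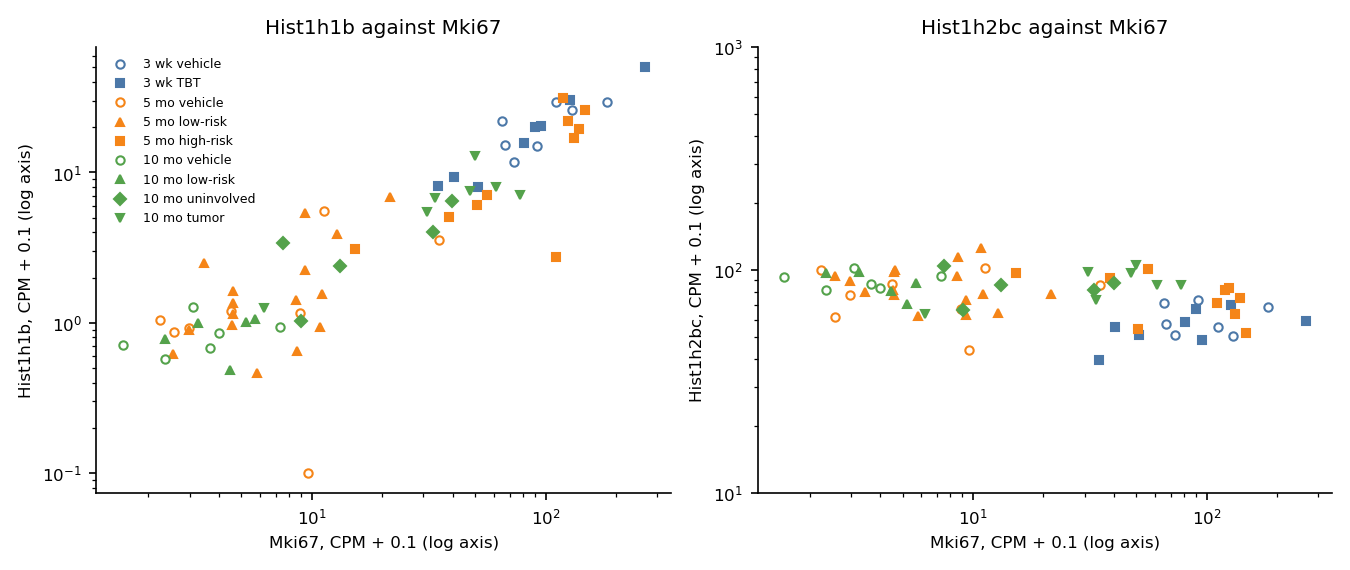
CPM of Hist1h1b (left) and Hist1h2bc (right) against Mki67 in each sample, with 0.1 added to both and log axes, marked by group. Samples with Mki67 above 100 CPM are 3-week livers and 5-month high-risk livers, and Hist1h2bc stays between 39.3 and 126 CPM throughout.

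Markers of other liver cell types also differed in these comparisons, in both directions. Called shares of all genes were 38.9% (5-month risk comparison), 52.4% (uninvolved against low-risk livers), 45.9% (tumors against vehicles) and 24.2% (age in vehicles). Endothelial genes were split in the 5-month risk comparison, with 1 of 6 higher and 3 lower. So were macrophage and Kupffer genes in uninvolved against low-risk livers, with 4 of 9 higher and 4 lower. With age 1 of 5 cholangiocyte genes rose and 0 fell. In 5-month high-risk against low-risk livers 7 of 8 stellate cell and fibroblast genes were higher and 1 lower, with sums of 495 to 1557 CPM against 197 to 390.2 CPM, and 4 of 5 cholangiocyte genes were higher, with sums of 32.6 to 442 CPM against 25.1 to 223 CPM. Of 7 tested hepatocyte genes 4 were lower there. In uninvolved against low-risk livers 6 of 8 stellate cell and fibroblast genes were higher and 1 lower (478 to 769 CPM against 241 to 308 CPM), as were all 5 cholangiocyte genes (118 to 264 CPM against 35.9 to 53.6 CPM) and 5 of 7 tested T and NK cell genes. In tumors all 5 cholangiocyte genes were higher than in vehicles (146 to 869.9 CPM against 34.9 to 50.7 CPM), and 5 of 7 hepatocyte and 5 of 7 erythroid genes were lower. Of 8 stellate cell and fibroblast genes 5 were higher and 1 lower in tumors, and of 6 endothelial genes 2 were higher and 3 lower. With age in vehicles 7 of 9 erythroid genes fell and 1 rose, and all 6 endothelial and 5 of 8 stellate cell and fibroblast genes fell. Of 9 macrophage and Kupffer genes 2 rose and 4 fell with age. In the 5-month risk comparison 5 of these were higher and 1 lower, and in tumors 4 were higher and 2 lower. No marker of these lists was at 0 throughout a group, and the part of other cell types in the histone results was not tested.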

How the data were processed

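Whole-number gene counts for 75 liver libraries were used as the authors deposited them, in 1 table that the authors' file name calls featureCounts output adjusted between batches with ComBat-seq. Reads were trimmed with Trim Galore, aligned with HISAT2 and counted with featureCounts on mm10, per the submitters' processing notes; versions, annotation release, strand and multiple-match settings and the ComBat-seq model are not given in the sources used here. Libraries were TruSeq stranded total RNA, per the labels' protocols. The adjustment can change low counts, and its effect was not tested.

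Members and gene lists were chosen with earlier results of these data known. The fits, over all genes, used R 4.3.3 and edgeR 4.0.16, with low counts filtered by filterByExpr, TMM scaling, robust quasi-likelihood F tests and Benjamini-Hochberg adjustment over all genes tested, at 0.05. Within each age 1 fit held the non-tumor groups (5 months: plus a batch term). Tumors were compared in fits of their own, with uninvolved livers or with vehicles, and ages in 1 fit of the batch 1 vehicles. Standard errors are those implied by F. CPM are counts scaled by the deposited library total, without TMM. Named were, in each class, the 3 members with the highest mean CPM; in each comparison up to 3 called members per direction with the largest changes and a mean of at least 0.5 CPM; 2 genes per context list with the smallest adjusted p; and Slbp. Others, among them Hist1h3i, Hist1h1a and Hist1h4k, were chosen after their values were seen, as were the fits without TMM scaling and those without single tumors. Titles of tumor and uninvolved libraries share mouse numbers, and same-numbered deviations correlated between -0.39 and 0.71 over 6 pairs. Fits were tested on simulated counts, with 200 genes changed: of 100 changed by 1 on the log2 scale, 68 were recovered in the design of the 5-month risk comparison, with 14773 genes. Positions, lengths and hairpins come from GENCODE M21 transcripts. Alternatives included DESeq2 1.42.0, other scalings and filters, single batches, single samples left out and replicate blocks.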

Additional observations from a re-analysis of the deposited data

Results flagged for a closer look

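Single samples stood out in 9 of 168 tests, made over the summed levels and the 3 most abundant members of each class in each group of suitable size, where chance marks about 1 in 20. In these 9 the highest or lowest sample was far from the nearest other one. The 10-month vehicle 1 led its group in the sum of all members (426 CPM, others 364 to 385), in the sum of the H3 genes (15.3 CPM, others 11.1 to 12.6) and in Hist1h2ab (1.09 CPM, others 0.306 to 0.573). The shallow 5-month vehicle 9 was lowest for Hist1h1e (27.5 CPM, others 56.0 to 77.7) and Hist1h4c (4.24 CPM, others 15.8 to 23.3). The 5-month vehicle 8 was highest for Hist1h2be (7.46 CPM, others 2.12 to 4.57) and high-risk 13 for Hist1h2ab (8.22 CPM, others 0 to 3.86). At 3 weeks, TBT 4 was highest for Hist1h3c (19.9 CPM, others 2.80 to 10.7) and vehicle 5 for Hist1h3e (29.4 CPM, others 14.9 to 20.3).

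The 10-month vehicle library labelled as a tumor, which entered only the alternatives that counted it as a vehicle, lay above all 6 vehicles in 23 of the 62 members with a read (37.1%) and below all of them in 13 (21%). Among genes tested in tumors against vehicles the shares were 47.2% and 30.8% over all 15293 genes and 42.6% and 25.5% over the 47 members. The library has 14.1% mitochondrial counts. Among the abundant members it exceeded the vehicles in Hist1h1d (34.0 CPM, vehicles 7.91 to 17.5), Hist1h2bb (3.56 CPM, vehicles 1.46 to 3.28), Hist1h2be (4.69 CPM, vehicles 2.59 to 3.68), Hist1h3c (1.91 CPM, vehicles 0.409 to 1.2) and Hist1h3f (2.61 CPM, vehicles 1.90 to 2.59). Its Mki67 level was 64.0 CPM, against 1.45 to 7.19 CPM in the vehicles, and its sum of all members, 328 CPM, was below theirs.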

How the results depend on the processing

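The number of members called with age from 3 weeks to 5 months (46) lay between 41 and 47 under every alternative run, and in low-risk against vehicle livers of either age, at 3 weeks and for the change of the risk difference it was 0 throughout. The 24 calls of 5-month high-risk against low-risk livers became 0 in batch 1 alone and lay between 20 and 27 otherwise. Calls over all genes were 773 in batch 1 alone and between 5403 and 7186 otherwise. The 5 calls of high-risk livers against vehicles became 1 with no low-count filter, 12 with DESeq2, 12 without deviating libraries, 0 in a fit of the 2 groups, 22 without the batch covariate, 0 in batch 1 alone and 17 without TMM scaling. Over all genes 2341 calls became 1211, 2927, 2903, 1338, 2671, 0 and 4947, in the same order. In uninvolved against low-risk livers 10 became 6 in a fit of the 2 groups, 16 without TMM scaling and 6 to 18 with single samples left out. Over all genes 8561 calls became 7586, 8667 and 7595 to 9255. Against vehicles 17 became 8 with the tumor-labelled vehicle counted and 13 to 21 with single samples left out. There 9427 calls over all genes became 6019 and 8490 to 10014. In tumors against uninvolved livers 13 became 20 with DESeq2, 21 with all 10-month groups in 1 fit, and 5 to 21 with single samples left out. Over all genes 2961 calls became 4967, 5346 and 1580 to 3948. In tumors against vehicles the range was 29 to 43 without a block, where calls over all genes ran from 4206 to 8287. In vehicles from 5 to 10 months 6 became 1 with no filter and 3 without TMM scaling, where 2107 calls over all genes became 1128 and 2017. With title numbers as a replicate block, the counts were 25 over 4 pairs of tumor and uninvolved liver and 22 for tumors against vehicles. They were 0 for 5-month high-risk livers against vehicles and 1 for vehicles from 5 to 10 months. For uninvolved livers against vehicles the count was 11, where 2 were higher and 9 lower and Hist1h1e was at -0.27. Calls over all genes were 3037, 3972, 65, 1512 and 9231, in the same order. Outside the tumor pairs samples share only a number. Without TMM scaling Cpsf2 (5-month risk comparison) turned to 0.09 and Hist1h4h (tumors against vehicles) to 0.02; the causes were not tested. Of 2800 values for single genes under alternatives 2630 kept direction and call, 97 lost and 70 gained a call, and 3 turned. Members near 0.1 CPM rest on few reads per library.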
